A study of Mus musculus with 12 samples.

Results

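Cultured mouse embryonic fibroblasts given HOXB13 were compared with cells given a control virus after 21 days in an osteogenic medium, across the genes for secreted proteins, cell-surface proteins and transcription factors and across all other genes. The cells came from β-actin-TVA/p53−/− mice, so all groups lack p53 and carry TVA, the receptor that lets avian RCAS retroviruses into mammalian cells, behind the β-actin promoter. Control cells carried RCAS-GFP and are called vector. HOXB13 cells carried RCAS-HOXB13. Both were grown to confluence in 5% serum and then kept in OsteoMAX-XF, a commercial osteogenic differentiation medium, until day 21. The comparison uses 6 of the 12 libraries of the study, 3 for each virus, and the other 6 are from confluent cells of both viruses at day 1, before the change of medium. The libraries of a group are triplicate wells, and no label makes them separate animals or separately infected cultures. P-values here thus measure the spread between these samples only, and that spread may be technical. By its title the series is about osteogenic differentiation under excess HOXB13, and these are the libraries taken at its end.

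HOXB13 is the most posterior homeobox factor of the Hox B cluster and is known for its roles in the tail bud, the prostate and the distal colon. Hox proteins bind DNA, often together with TALE homeodomain partners such as MEIS and PBX, and switch genes for other transcription factors and for signalling proteins on or off. Secreted ligands and their antagonists, the receptors that read them, and the transcription factors that respond decide together which way mesenchymal cells differentiate. BMPs and Wnts favour bone formation, and many of the secreted antagonists named below hold them back.

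Each library held between 12173173 and 15154317 gene reads, and levels are given as gene reads per 1000000 (RPM) of the authors' TMM-scaled library size. Replicates correlated with Pearson's r of 0.997 across genes and libraries of different viruses with r from 0.902 to 0.906. In GENCODE M21 on build GRCm38, Hoxb13 is ENSMUSG00000049604, chromosome 11, 96194316 to 96197447, plus strand. It stood at 0.571, 0.225 and 0.234 RPM in the 3 vector libraries and at 251, 254 and 238 in the HOXB13 libraries, as the labels say. The labels do not say whether the virus carried the human or the mouse gene. The libraries also divided by sex chromosome: Xist ranged from 151 to 167 RPM in vector and from 0.139 to 0.468 in HOXB13, while Y-linked Ddx3y ranged from 0.075 to 0.234 in vector and from 104 to 108 in HOXB13. Virus and sex chromosome genes thus divide the 6 libraries alike, so vector and HOXB13 cells may not share a source. Virus, sex and any other difference between the starting cells cannot be told apart as sources of any difference below. Mitochondrial genes took 2.53% to 2.84% of reads in vector and 1.70% to 1.78% in HOXB13.

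Fibroblast markers were high in both cultures, and vector held a second set of markers. Summed over 12 fibroblast markers, levels were 41408 to 45184 RPM in vector and 45913 to 48401 in HOXB13. Most of both sums came from Fn1, Col1a1, Col1a2 and Col3a1, so the sums mainly follow these matrix genes. Their means were 14468, 9541, 8371 and 6363 RPM in vector and 14416, 8530, 6087 and 11650 in HOXB13. Of the 12 members, 4 were at least 2-fold higher and 2 at least 2-fold lower in HOXB13. The 2 lower ones were Thy1, a surface glycoprotein, with 146 ± 4.89 RPM in vector and 24 ± 0.587 in HOXB13, and the proteoglycan gene Dcn, with 1157 ± 45.8 RPM in vector and 509 ± 6.26 in HOXB13. Summed over 10 mesothelial markers, levels were 4040 to 4124 RPM in vector and 79.8 to 94.9 in HOXB13, and all 10 were at least 2-fold lower in HOXB13. Mesothelium is the epithelial lining of the body cavities. Each of those 10 had reads in both groups. Of the epithelial list, 2 of 7 members were tested and both were lower, with sums of 64.8 to 68.1 and 0.696 to 1.17, and Krt5 had no reads. In several other lists a single gene carried most of the difference between the sums. Smooth muscle markers summed to 1361 to 1396 RPM in vector and 491 to 530 in HOXB13, mostly through Acta2, smooth muscle actin, with 863 ± 14.4 RPM in vector and 267 ± 14.3 in HOXB13. Of the 8, 3 were at least 2-fold lower and 2 at least 2-fold higher, Actg2, with 5.81 ± 2.13 RPM in vector and 19.3 ± 2.5 in HOXB13, and Des, with 10.6 ± 0.474 RPM in vector and 27.7 ± 0.383 in HOXB13. Osteoblast markers summed to 256 to 262 and 44 to 45.7, and nearly all of that difference was Alpl, alkaline phosphatase, with 232 ± 3.61 RPM in vector and 13.4 ± 1.09 in HOXB13. Runx2, the other tested member of the 7 and a regulator of bone formation, was slightly higher, with 25.6 ± 2.09 RPM in vector and 30.9 ± 1.02 in HOXB13. Adipocyte markers summed to 62.7 to 74.4 against 361 to 368, which was nearly all Fabp4, with 60.7 ± 5.44 RPM in vector and 362 ± 3.79 in HOXB13, while Pparg, given below, fell and the remaining tested member did not pass. Neural markers summed to 8.32 to 9.19 against 46.6 to 55.5, mostly through Stmn2, with 2.61 ± 0.781 RPM in vector and 40.3 ± 4.12 in HOXB13, the 1 member of 5 tested that was at least 2-fold changed. Endothelial markers summed to 31.7 to 33.7 and 3.26 to 4.99, and cartilage markers to 19 to 21.1 and 7.1 to 9.86, each with 1 of 2 tested members at least 2-fold lower. Macrophage markers summed to 6.31 to 8.32 against 5.53 to 6.33 and Schwann markers to 0.652 to 1.25 against 0.607 to 1.04. Skeletal muscle markers were at most 0.312 in any library, and Myod1, Myog and Ckm had no reads. In these bulk libraries fewer cells of a type and less RNA per cell cannot be told apart, and the part of the mesothelial markers in the differences below was not tested.

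At day 21 the viruses differed in 2148 of 13056 tested genes outside chromosomes X and Y by at least 2-fold with limma's adjusted p below 0.05, 16.5% of those tested. Of these, 1069 (8.19%) were higher and 1079 (8.26%) lower in HOXB13. With no limit on the fold, 9444 genes passed, 72.3%, with 4928 (37.7%) higher and 4516 (34.6%) lower, so the replicates were close enough for small differences to pass and the 2-fold counts are the ones read here. The 3 HOXB13 and 3 vector libraries did not overlap for 9619 tested genes, 73.7%. Most genes named below were picked only from among these, so lack of overlap is no support for them. Of the 3 classes, secreted genes had the highest share. Of 431 tested, 212 passed with at least 2-fold, 49.2%, with 137 higher and 75 lower in HOXB13 and a median log2 fold change of 0.27. Of 802 surface genes 330 did so, 41.1%, with 187 higher, 143 lower and a median of 0.21. Of 777 transcription factor genes 134 did so, 17.2%, with 60 higher, 74 lower and a median of 0.07, which is near the share of all genes. Of these factors 379 are zinc finger genes of the ZFP, ZBTB and ZSCAN kinds. Leaving those out, 116 of 398 passed, 29.1%, with 54 higher and 62 lower. Among the 11046 genes in none of the 3 classes 1472 passed, 13.3%, and the median over all tested genes was 0.02. The classes were drawn up from gene symbols by family.

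**Figure D1:**
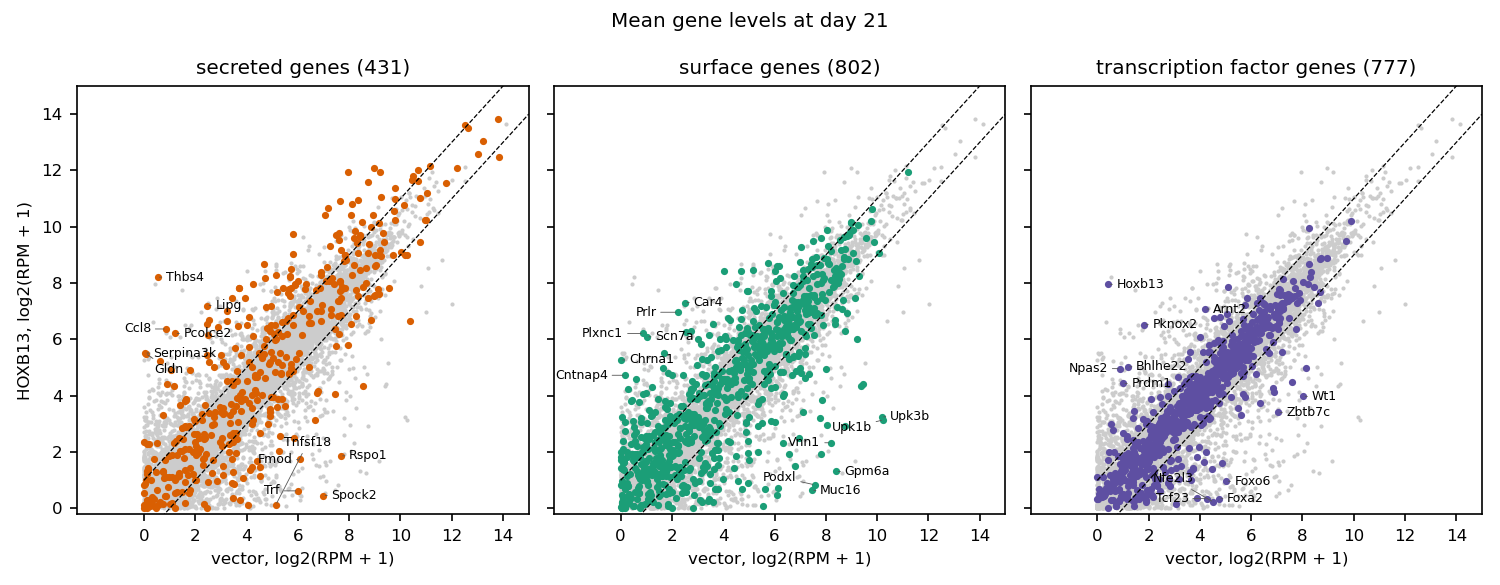
Mean level of each tested gene in the 3 vector libraries (x axis) and the 3 HOXB13 libraries (y axis) at day 21, both as log2(RPM + 1), with secreted (431), surface (802) and transcription factor genes (777) coloured over all tested genes in grey. Dashed lines mark a 2-fold difference, and the labelled genes are those the text describes among the 6 highest and 6 lowest of each class by log2 fold change.

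Families differed in direction among their 2-fold changed members. Of all tested genes 8.19% were at least 2-fold higher and 8.26% lower, and of secreted genes 31.8% and 17.4%. At least 2-fold higher were 9 of 13 tested serpins, 10 of 21 other secreted proteases and processing factors, 18 of 45 matricellular and other matrix glycoproteins and 6 of 14 metalloproteinases and their inhibitors, with 1, 3, 2 and 1 lower. Against these stood 14 of 27 Hox genes, 5 of 10 tight junction and epithelial adhesion genes and 3 of 9 FGF ligands that were at least 2-fold lower, with 3, 0 and 0 higher. FGF ligands did not fall as a family, since with no limit on the fold 4 passed as higher and 3 as lower. Their median log2 fold change was 0.28. Families that split were IGF and IGF-binding proteins, with 3 higher and 4 lower of 8, Notch receptors and ligands, with 3 and 4 of 9, and potassium channels, with 7 and 6 of 22. Solute carriers, the largest family of surface genes tested, had 19 higher and 16 lower of 140.

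**Figure D2:**
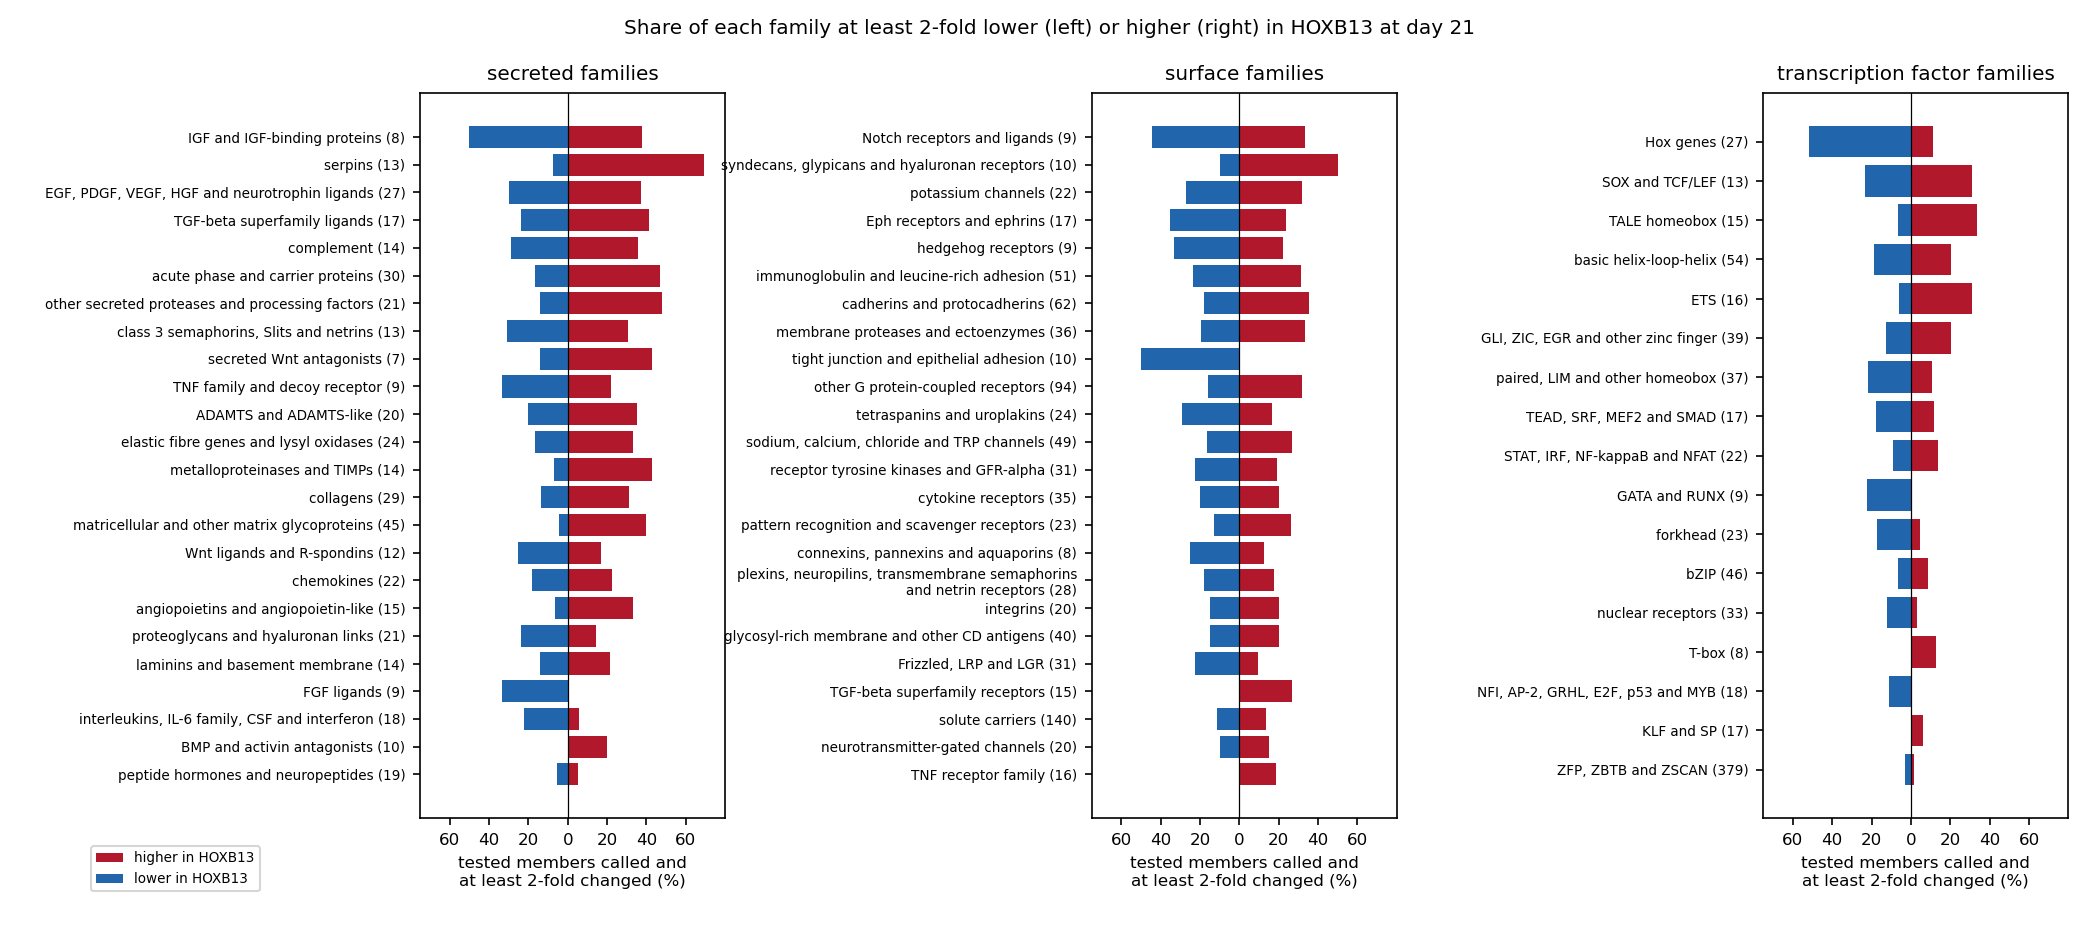
Percent of tested members of each family (number tested in brackets) that passed limma's test and were at least 2-fold lower (blue, to the left) or higher (red, to the right) in HOXB13 at day 21, for families with at least 5 tested members. Serpins, among them near-identical Serpina3 genes that may share reads, reach furthest to the right, with 9 of 13 members, and Hox genes furthest to the left, with 14 of 27.

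Taken were the 2 highest and 2 of the 4 lowest secreted genes by log2 fold change on the log2(RPM + 1) scale. Their 4 promoters are shown as examples from both ends of the secreted class. Each is the run of 250 bases that ends at the base before the RefSeq gene start (GRCm38.p6), read in the direction of the gene. They lie at chr13:92794819-92795068 (minus strand), chr11:82114935-82115184 (plus), chr10:60106007-60106256 (plus) and chr1:161494407-161494656 (plus). Capitals mark matches to TATAAA, the TATA box core.
Thbs4: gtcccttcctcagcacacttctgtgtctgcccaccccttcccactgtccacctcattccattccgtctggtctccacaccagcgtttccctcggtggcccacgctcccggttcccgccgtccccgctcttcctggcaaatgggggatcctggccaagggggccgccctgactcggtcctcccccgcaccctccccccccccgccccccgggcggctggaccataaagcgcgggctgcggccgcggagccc
Ccl8: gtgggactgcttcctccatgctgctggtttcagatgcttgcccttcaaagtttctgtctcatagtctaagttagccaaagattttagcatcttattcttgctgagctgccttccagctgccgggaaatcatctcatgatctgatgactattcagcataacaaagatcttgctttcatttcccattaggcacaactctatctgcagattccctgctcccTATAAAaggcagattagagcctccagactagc
Spock2: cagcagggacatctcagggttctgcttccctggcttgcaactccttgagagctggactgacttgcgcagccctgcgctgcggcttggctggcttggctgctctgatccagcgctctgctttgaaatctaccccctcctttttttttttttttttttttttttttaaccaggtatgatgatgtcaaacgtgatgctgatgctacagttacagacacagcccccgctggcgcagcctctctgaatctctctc
Tnfsf18: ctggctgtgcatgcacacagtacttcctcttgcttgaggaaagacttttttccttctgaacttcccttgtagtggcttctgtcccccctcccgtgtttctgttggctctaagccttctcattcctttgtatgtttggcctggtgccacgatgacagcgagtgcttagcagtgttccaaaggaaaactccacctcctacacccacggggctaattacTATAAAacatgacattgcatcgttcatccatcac
The TATAAA match begins 32 bases before the start of Ccl8 and 34 bases before that of Tnfsf18, and there is none in the Thbs4 and Spock2 windows. GC content was 70.8% for Thbs4, 44.8% for Ccl8, 51.2% for Spock2 and 48.4% for Tnfsf18. Over both strands, TATAAA was found in 12.4% of all 32851 RefSeq windows of this length, in 6.52% of those of tested genes, in 9.95% of those of genes at least 2-fold higher and in 8.12% of those of genes at least 2-fold lower in HOXB13. CCAATAAA and CTCGTAAA, 8-base sequences that HOXB13 is known to bind, were also searched on both strands. CCAATAAA was found in 1.02% of all windows, 0.721% of those of tested genes, 0.493% of the higher genes' windows and 0.478% of the lower genes' windows. CTCGTAAA was found in 0.11%, 0.0705%, 0.0985% and 0%. None of the 4 promoters shown holds either. The 3 motifs cannot share a whole match, since the shorter is not contained in the longer ones, but their matches may overlap in part. A match is only a run of letters, and factor binding was not measured.

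Secreted genes with the highest rises were for matrix, a chemokine, protease inhibitors and a lipase. Thbs4 (ENSMUSG00000021702, chromosome 13, 92751590 to 92794818, minus strand) encodes thrombospondin 4, a matrix glycoprotein of tendon and muscle. It stood at 0.489, 0.45 and 0.389 RPM in the vector libraries and at 316, 277 and 293 in the HOXB13 libraries. All 3 HOXB13 libraries lay far above all vector libraries, and the log2 fold change was 7.68 ± 0.10 (adjusted p = 3.55e-26). Here and below log2 fold changes are on the log2(RPM + 1) scale with their standard errors from limma, a scale that understates changes of genes near 0, and edgeR on whole reads gave 9.37 for Thbs4. Ccl8 (ENSMUSG00000009185, chromosome 11, 82115185 to 82116799, plus strand), which encodes the chemokine MCP-2, had 0.897, 0.8997 and 0.701 RPM in vector and 81.3, 82.2 and 82.1 in HOXB13. The HOXB13 libraries were nearly level with each other, and the log2 fold change was 5.5 ± 0.11 (adjusted p = 3.23e-22).

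Serpina3k belongs to a cluster of near-identical serine protease inhibitor genes and overlaps the exons of Serpina3m on the same strand, so its reads may be shared. Its level was 0, 0 and 0.0779 RPM in vector, a single read in all, and 48.8, 46.5 and 39.3 in HOXB13, a ratio of 1718 (95% counting interval 308 to 67879). Gldn, which encodes gliomedin, a matrix protein of nerve fibre nodes, had 2 reads over the vector libraries and 45.7, 41.3 and 45.5 RPM in HOXB13, a ratio of 850.2 (95% counting interval 235 to 7026). These intervals cover counting error only. By DESeq2 the log2 fold changes of Serpina3k and Gldn, 10.6 and 9.73, were above those of Thbs4 and Ccl8, 9.38 and 6.62. Pcolce2, an enhancer of procollagen processing, stood at 1.63, 1.57 and 0.779 RPM in vector and 81.1, 62.4 and 76 in HOXB13. Lipg, the endothelial lipase gene, stood at 3.91, 4.57 and 4.98 and 148, 142 and 149.9. The log2 fold changes of Pcolce2 and Lipg were 5.01 ± 0.11 and 4.75 ± 0.08.

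Spock2 (ENSMUSG00000058297, chromosome 10, 60106219 to 60135198, plus strand) encodes testican 2, a proteoglycan of the extracellular matrix. It had 121, 122 and 134 RPM in vector and 0.228, 0.546 and 0.348 in HOXB13. Its log2 fold change, -6.53 ± 0.11 (adjusted p = 2.03e-23), was the lowest of all secreted genes on the log2(RPM + 1) scale, while by DESeq2 Tnfsf18 was slightly lower, at -8.44 against -8.4. Rspo1, which encodes R-spondin 1, an amplifier of Wnt signals, followed with 190.2, 215 and 202 RPM in vector and 2.81, 3.2 and 1.95 in HOXB13. Trf, the iron carrier transferrin, had 59.4, 62.8 and 66.1 and 0.834, 0.234 and 0.557. All vector libraries of these 3 genes lay well above all HOXB13 libraries. Tnfsf18 (ENSMUSG00000066755, chromosome 1, 161494655 to 161505290, plus strand), the ligand of the T-cell receptor GITR, had 36.6, 33.9 and 32.5 RPM in vector and 0, 0.0779 and 0.209 in HOXB13, from 1319 and 4 reads in all. Fmod, the collagen-binding proteoglycan fibromodulin, had 57.5, 56.6 and 86.4 RPM in vector, with the third library above the other two, and 2.58, 1.87 and 2.58 in HOXB13. The log2 fold changes of Rspo1, Trf, Tnfsf18 and Fmod were -5.81 ± 0.12, -5.39 ± 0.14, -5.01 ± 0.12 and -4.32 ± 0.13.

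Growth factor ligands changed in both directions. Of 27 tested EGF, PDGF, VEGF, HGF and neurotrophin ligands 10 were at least 2-fold higher and 8 at least 2-fold lower. Hgf, the ligand of MET that drives growth and movement of epithelial cells, rose from 12.1 ± 1.31 to 226 ± 12.7 RPM (SD, n = 3, as for all means below), a log2 fold change of 4.12 ± 0.08. Nrg1, a ligand of ERBB receptors, rose from 8.52 ± 0.544 to 98.9 ± 5.12. None of the 9 tested FGF ligands was at least 2-fold higher and 3 were lower, against 8.19% and 8.26% of all genes. Fgf2, a mitogen of fibroblasts, fell from 174 ± 5.89 to 15.6 ± 1.78 (log2 fold change -3.4 ± 0.06), and its neighbour Nudt6 overlaps it on the opposite strand. Fgf18, which acts on cartilage and bone growth, fell from 15.8 ± 1.14 to 0.0956 ± 0.106 (log2 fold change -3.94 ± 0.12). Their receptors, chosen after their values were seen, moved in opposite directions. The FGF receptor gene Fgfr1 rose from 289.6 ± 4.96 to 566 ± 7.08 and the HGF receptor gene Met fell from 235 ± 7.81 to 89.6 ± 3.01.

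IGF-binding proteins, which hold insulin-like growth factors outside the cell, moved strongly both ways. Igfbp3, the main carrier in blood, rose from 246 ± 8.17 to 3949 ± 219.9 RPM, with 4050.0, 3696 and 4099 in the 3 HOXB13 libraries (log2 fold change 4.0 ± 0.05). Igfbp5, which is bound by bone matrix, rose from 24.6 ± 1.19 to 409 ± 13.8 (log2 fold change 4.0 ± 0.07). Igfbp6, which prefers IGF2, fell from 1323 ± 57.4 to 101 ± 2.53, with 1258, 1343 and 1367 in the vector libraries (log2 fold change -3.7 ± 0.04). By the rule for naming genes, the libraries of the viruses did not overlap for these 3 genes. The ligand gene Igf1 and the receptor gene Igf1r, chosen after their values were seen, rose from 16 ± 2.95 to 52 ± 2.45 and from 105 ± 4.77 to 243 ± 9.99.

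Among 17 tested TGF-β superfamily ligands 7 were at least 2-fold higher and 4 lower. Bmp3, an atypical BMP known to restrain bone formation, rose from 0.546 ± 0.204 to 37.1 ± 2.06 (log2 fold change 4.63 ± 0.13). Inhbb, a subunit of activin B, rose from 15.1 ± 1.82 to 91.3 ± 8.22, and Tgfb2 fell from 105 ± 2.64 to 16.1 ± 1.22. Of 10 BMP and activin antagonists 2 were at least 2-fold higher and 0 lower, against the 8.19% and 8.26% of all genes. Nog, which encodes noggin, rose from 2.07 ± 0.637 to 6.56 ± 0.618 (log2 fold change 1.32 ± 0.13). Among 15 receptors and co-receptors 4 were higher and 0 lower, with Eng, the co-receptor endoglin, from 4.34 ± 0.897 to 25.6 ± 3.08, and the BMP receptor gene Bmpr1b from 6.76 ± 0.261 to 20.6 ± 1.02. Eng overlaps Fpgs on the opposite strand.

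Wnt pathway genes at the cell exterior fell in part. Of 12 tested Wnt ligands and R-spondins 2 were at least 2-fold higher and 3 lower, and besides Rspo1 the lower ones were Wnt11, from 10.1 ± 0.821 to 0.278 ± 0.17 (log2 fold change -3.12 ± 0.12), and Wnt9a, from 20.1 ± 1.74 to 2.25 ± 0.407 (log2 fold change -2.7 ± 0.11). Of 7 secreted Wnt antagonists 3 were higher and 1, Sfrp4, was lower, from 12.4 ± 0.477 to 0.224 ± 0.0811 (log2 fold change -3.45 ± 0.12). Of 31 Frizzled, LRP and LGR receptors 3 were higher and 7 lower. Fzd1, a Wnt receptor, rose from 64.6 ± 5.83 to 346 ± 11.1. Lgr5, an R-spondin receptor, fell from 6.26 ± 0.656 to 0.396 ± 0.0198, while its relative Lgr4, chosen after its values were seen, rose by less than 2-fold, from 50.8 ± 2.85 to 82.5 ± 0.964.

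Chemokines, cytokines and TNF ligands were mixed. Of 22 tested chemokines 5 were at least 2-fold higher and 4 lower. Besides Ccl8, Ccl9 rose from 10.7 ± 1.37 to 50.6 ± 3.02, and Cxcl10, an interferon-induced chemokine, fell from 13.4 ± 2.66 to 1.09 ± 0.309. Of 18 interleukins, IL-6 family cytokines, colony-stimulating factors and interferons 1 was higher and 4 lower. The higher one was Il7, a growth factor of lymphocytes, from 0.857 ± 0.142 to 20.4 ± 0.765 (log2 fold change 3.53 ± 0.12), and Gm16685 on the opposite strand moved with it, with means of 3.43 and 25.8. Lif, leukaemia inhibitory factor, fell from 37.7 ± 1.08 to 3.09 ± 0.573, whereas the gene of its receptor, Lifr, rose from 52.3 ± 3.7 to 422 ± 19.4 (log2 fold changes -3.25 ± 0.10 and 2.99 ± 0.05). Tnfsf11, the osteoclast-inducing cytokine RANKL, had 49.1, 42.7 and 50.4 RPM in vector and 111, 109 and 101 in HOXB13.

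Complement and acute phase genes were more often higher than lower, with 5 higher and 4 lower of 14 and 14 higher and 5 lower of 30. Of all secreted genes 31.8% were at least 2-fold higher and 17.4% lower. Cfb, complement factor B, rose from 11.9 ± 0.635 to 228 ± 13 (log2 fold change 4.15 ± 0.10). Masp1, a serine protease of the lectin pathway, rose from 25.1 ± 1.89 to 292 ± 2.55. Among serpins, Serpina3c and Serpina3f rose from 4.83 ± 0.30003 to 102 ± 3.34 and from 8.32 ± 2.5 to 128 ± 2.73, with the same limit on shared reads as Serpina3k. Angptl2, an angiopoietin-like protein, rose from 55.5 ± 7.89 to 527 ± 4.99 (log2 fold change 3.24 ± 0.06).

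Of 21 tested proteoglycans and hyaluronan link genes 3 were at least 2-fold higher and 5 lower and of 20 ADAMTS and related genes 7 higher and 4 lower. Col12a1 and Col14a1, collagens that coat the surface of fibrils, rose from 591 ± 29.5 to 3914 ± 329.6 and from 11.7 ± 2.77 to 88.2 ± 1.51 (log2 fold changes 2.72 ± 0.05 and 2.83 ± 0.12), and Col8a2, a short-chain collagen, fell from 21.7 ± 1.53 to 1.24 ± 0.175. Of 29 collagen genes 9 were higher and 4 lower. Smoc2, a calcium-binding matrix protein, rose from 55 ± 5.76 to 862 ± 42.6, and Vcan, the large proteoglycan versican, rose from 273 ± 21.6 to 1796 ± 43. Mfap5, a microfibril protein of elastic fibres, rose from 1.27 ± 0.265 to 19.5 ± 0.415. Adamtsl3 and Adamts12, from the ADAMTS family of matrix proteases and relatives, rose from 9.84 ± 0.226 to 179 ± 9.19 and from 29.8 ± 1.51 to 147 ± 3.95. The collagenase gene Mmp13 rose from 266 ± 12.9 to 1358 ± 39, the gelatinase gene Mmp2 from 607 ± 19.9 to 2115 ± 39.9 and the stromelysin gene Mmp3 from 484 ± 43.1 to 1354 ± 75.1. Their log2 fold changes were 2.35 ± 0.06, 1.8 ± 0.03 and 1.49 ± 0.08. Plau, the urokinase that turns plasminogen into plasmin, rose from 4.62 ± 0.492 to 70.4 ± 1.7 (log2 fold change 3.67 ± 0.06), and Prss12, the secreted protease neurotrypsin, fell from 101 ± 8.18 to 7.76 ± 0.342 (log2 fold change -3.55 ± 0.12). Secreted guidance genes parted, with Ntn1, netrin 1, rising from 14.2 ± 3.71 to 177 ± 5.07 and the semaphorin genes Sema3d and Sema3c falling from 108 ± 3.32 to 16.9 ± 1.6 and from 465 ± 7.74 to 104 ± 5.03.

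Surface genes with the largest falls on the log2(RPM + 1) scale belonged in part to the mesothelial marker list. That list holds Upk1b, Upk3b, Gpm6a and Podxl. By DESeq2 Tspan8, given below, fell more than Upk1b, with log2 fold changes of -9.84 and -7.27. Upk1b (ENSMUSG00000049436, chromosome 16, 38773184 to 38800328, minus strand), a uroplakin of the tetraspanin family, had 1170.3, 1255 and 1223 RPM in vector and 8.12, 6.47 and 8.98 in HOXB13, and its log2 fold change was -7.11 ± 0.07 (adjusted p = 1.69e-28). Gpm6a, a membrane glycoprotein first known from neurons, had 342, 352 and 323 and 1.37, 1.56 and 1.53. Upk3b had 1155, 1133 and 1177 and 7.43, 8.57 and 9.61. All vector libraries were high and all HOXB13 libraries low for these 3 genes. Muc16, the large mucin detected as CA125, had 173, 162 and 186 RPM in vector and 0.228, 0.546 and 0.905 in HOXB13. Podxl, podocalyxin, had 186, 185 and 195 and 0.759, 0.701 and 0.905. Vnn1, a pantetheinase anchored in the membrane, had 290.0, 297 and 288 and 4.17, 4.6 and 3.34. The log2 fold changes of Gpm6a, Upk3b, Muc16, Podxl and Vnn1 were -7.1 ± 0.07, -6.93 ± 0.06, -6.83 ± 0.13, -6.73 ± 0.09 and -5.87 ± 0.11.

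At the other end stood a semaphorin receptor, channels and a hormone receptor. Plxnc1 (ENSMUSG00000074785, chromosome 10, 94790866 to 94944835, minus strand) encodes plexin C1, the receptor of semaphorin 7A. It had 1.06, 0.825 and 0.623 RPM in vector and 73.4, 65.9 and 80.1 in HOXB13, and the groups differed by 5.34 ± 0.10 on the log2 scale (adjusted p = 3.76e-23). Chrna1, the α subunit of the muscle acetylcholine receptor, had no reads in any vector library and 36.5, 38.9 and 37.6 RPM in HOXB13, at least 483-fold higher than the 0.078 RPM that 3 reads over the vector group would give. Scn7a, a sodium channel gene, had 0.571, 0.975 and 1.56 RPM in vector and 64.6, 66.5 and 70.9 in HOXB13. Car4, a membrane-bound carbonic anhydrase, had 6.6, 2.85 and 4.67 and 163, 143 and 167, with a wide spread among the low vector values. Prlr, the prolactin receptor, had 3.42, 4.2 and 3.5 and 128, 117 and 127. Cntnap4, a neurexin-like adhesion protein, had 0.0815, 0.15 and 0.156, from 5 reads, and 26.3, 25.2 and 25.1. The log2 fold changes of Scn7a, Car4, Prlr and Cntnap4 were 5.1 ± 0.15, 4.85 ± 0.17, 4.73 ± 0.14 and 4.55 ± 0.12.

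**Figure D3:**
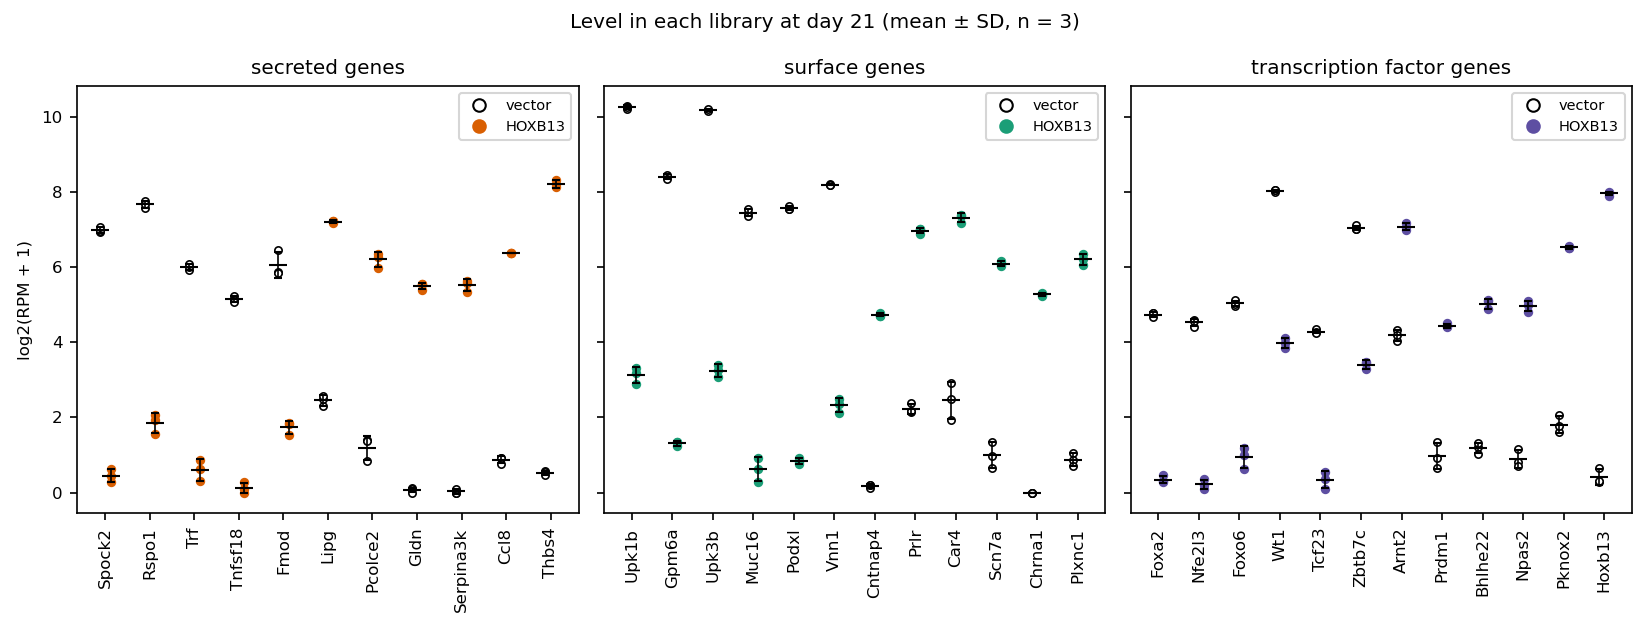
Level at day 21 of the genes the text describes among the 6 highest and 6 lowest of each class, as log2(RPM + 1), with open circles for the 3 vector libraries, filled circles for the 3 HOXB13 libraries, and bars for the mean ± SD of each group on that scale. Genes run from the lowest to the highest log2 fold change. They were picked only where the groups did not overlap, which held for 73.7% of all tested genes.

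Receptor tyrosine kinases and GFR-alpha co-receptors had 6 members at least 2-fold higher and 7 lower of 31. The VEGF receptor genes Flt4 and Kdr fell from 263 ± 6.01 to 6.73 ± 0.292 and from 31.5 ± 0.97 to 2.31 ± 0.235 RPM (log2 fold changes -5.1 ± 0.05 and -3.3 ± 0.09). Kdr is also on the endothelial marker list, whose other tested member did not reach 2-fold, while Pecam1 and Cdh5 were below the filter. Mst1r, the receptor of macrophage-stimulating protein, fell from 92.7 ± 4.36 to 2.81 ± 0.476 (log2 fold change -4.63 ± 0.12). The Notch ligand gene Jag1 fell from 31.4 ± 1.95 to 8.39 ± 0.46 and the receptor gene Notch1 rose from 5.95 ± 0.836 to 22.2 ± 0.501. Epha4 and Epha7, receptors of ephrins, parted as well, with 64 ± 1.15 RPM in vector and 7.32 ± 0.40000 in HOXB13 for Epha4 and 6.98 ± 0.286 RPM in vector and 32.9 ± 2.45 in HOXB13 for Epha7.

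Cytokine receptors had 7 members at least 2-fold higher and 7 lower of 35. Il4ra, the receptor chain shared by IL-4 and IL-13 and chosen after its values were seen, rose from 179 ± 7.22 to 729.7 ± 18.1 (log2 fold change 2.02 ± 0.04), and Il22ra1, a chain of the IL-22 receptor, fell from 8.06 ± 0.652 to 0.176 ± 0.122. Of 16 TNF receptor genes 3 were higher and 0 lower, together 18.8% against 16.5% of all genes. Among them Cd40 rose from 1.01 ± 0.169 to 16.2 ± 1.07 and Tnfrsf21, death receptor 6, from 25.7 ± 1.95 to 131 ± 6.12 (log2 fold changes 3.1 ± 0.12 and 2.31 ± 0.05). The lectin-like gene Clec14a and the scavenger receptor gene Scara3 rose from 5.78 ± 1.58 to 78.3 ± 2.34 and from 25 ± 5.3 to 344 ± 21.6. Of 94 other G protein-coupled receptors 30 were higher and 15 lower. The lowest of these were the adhesion receptor gene Adgrg1, from 66.9 ± 4.39 to 0.389 ± 0.208, the zinc-sensing receptor gene Gpr39, from 124 ± 3.73 to 4.6 ± 0.455, and the adhesion receptor gene Adgrb2, from 78.6 ± 6.08 to 3.98 ± 0.302 (log2 fold changes -5.62 ± 0.12, -4.48 ± 0.07 and -4.0 ± 0.08).

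Of 10 tight junction and epithelial adhesion genes 5 were at least 2-fold lower and 0 higher. Cldn15, a claudin of tight junctions, fell from 111 ± 6.41 to 1.85 ± 0.484 RPM (log2 fold change -5.31 ± 0.13), and E-cadherin, Cdh1, fell from 48.5 ± 0.956 to 0.604 ± 0.255 (log2 fold change -4.96 ± 0.13). P-cadherin, Cdh3, fell from 139 ± 4.83 to 9.77 ± 0.396. Of 62 cadherins and protocadherins 22 were nevertheless at least 2-fold higher and 11 lower. Tspan8, a tetraspanin, fell from 45.4 ± 0.88 to 0.0492 ± 0.0428, from 1747 to 2 reads, with vector over HOXB13 at 917 (95% counting interval 254 to 7582). Lrrn4, a leucine-rich repeat protein, fell from 221 ± 16.7 to 2.84 ± 0.303 and Lrp2, the endocytic receptor megalin, from 424 ± 16.4 to 6.55 ± 0.542 (log2 fold changes -5.85 ± 0.07 and -5.82 ± 0.07). Itga3, an integrin subunit that binds laminins, fell from 219 ± 2.14 to 8.28 ± 0.474, and Itgb8, whose integrin activates latent TGF-β, rose from 17.2 ± 1.14 to 108 ± 4.02 (log2 fold changes -4.57 ± 0.04 and 2.58 ± 0.07). Plxna4, a receptor of class 3 semaphorins, fell from 696 ± 20.1 to 20.5 ± 1.88 (log2 fold change -5.02 ± 0.06). Gpc1 and Sdc1, heparan sulfate proteoglycans of the cell surface, rose from 34.9 ± 1.61 to 354 ± 15.5 and from 172 ± 3.19 to 405 ± 11.2. The gap junction gene Gja1 rose from 109 ± 2.73 to 306 ± 1.72. Gas1, a co-receptor of hedgehog proteins, fell from 556 ± 10.3 to 176 ± 13.9, and Dpp4, a membrane peptidase that cleaves chemokines and incretins, fell from 25.5 ± 1.3 to 0.62 ± 0.36.

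Ion channel genes changed in both directions. Of 22 potassium channel genes Kcnj15 and Kcnh1 rose from 67.1 ± 1.35 to 385 ± 9.3 and from 1.31 ± 0.281 to 19.1 ± 1.35 (log2 fold changes 2.5 ± 0.08 and 3.13 ± 0.12), and Kcnh2, which encodes the cardiac hERG channel, fell from 30.01 ± 2.07 to 2.88 ± 0.21 (log2 fold change -3.0 ± 0.12). Slc6a2, the noradrenaline transporter gene, rose from 0.367 ± 0.126 to 13.4 ± 0.48 (log2 fold change 3.4 ± 0.12).

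Transcription factor genes were led by the viral gene itself. Hoxb13 had a log2 fold change of 7.54 ± 0.10 and limma's adjusted p of 5.75e-26. Among the other genes of this symbol-based class the steepest rise was that of Pknox2 (ENSMUSG00000035934, chromosome 9, 36890982 to 37147407, minus strand), a TALE homeobox gene. It had 2.04, 2.4 and 3.19 RPM in vector and 89.7, 90.1 and 93.8 in HOXB13, and its log2 fold change was 4.71 ± 0.13. Npas2, a partner of BMAL1 in the circadian clock, had 1.22, 0.75 and 0.623 and 30.8, 27 and 32.9. The neuronal repressor gene Bhlhe22 had 1.3, 1.05 and 1.48 and 32.9, 28.4 and 33.9. For these 3 genes every HOXB13 library was high and every vector library low. Prdm1, which encodes the repressor BLIMP1, had 0.571, 0.8997 and 1.56 RPM in vector and 21.6, 20.03 and 20.4 in HOXB13. Arnt2, a partner of bHLH-PAS factors, had 15.5, 19.2 and 17.4 and 134, 125 and 144. The log2 fold changes of Npas2, Bhlhe22, Prdm1 and Arnt2 were 4.07 ± 0.14, 3.85 ± 0.12, 3.46 ± 0.16 and 2.88 ± 0.09.

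Foxa2 (ENSMUSG00000037025, chromosome 2, 148042877 to 148046969, minus strand), a forkhead factor of endoderm, was the lowest of this class on the log2(RPM + 1) scale, while by DESeq2 Nfe2l3 was lower, at -7.0 against -6.56. It had 24.3, 26.2 and 26.6 RPM in vector and 0.379, 0.234 and 0.209 in HOXB13, -4.39 ± 0.12 apart on the log2 scale (adjusted p = 3.59e-20). Nfe2l3, of the NRF family, had 20.3, 23.2 and 22.8 and 0.152, 0.0779 and 0.278, from 851 and 7 reads. Foxo6 had 30.5, 33.7 and 31.1 and 1.29, 1.01 and 0.557. Wt1, the Wilms tumour factor, is on the mesothelial marker list and had 255, 262 and 265 RPM in vector and 16.2, 13.4 and 14.7 in HOXB13. Tcf23, a bHLH factor, had 19.2, 18.3 and 18 and 0.0759, 0.468 and 0.278. Zbtb7c had 128, 137 and 128 and 10.01, 10.1 and 8.7. The log2 fold changes of Nfe2l3, Foxo6, Wt1, Tcf23 and Zbtb7c were -4.31 ± 0.12, -4.09 ± 0.13, -4.06 ± 0.05, -3.95 ± 0.13 and -3.64 ± 0.07.

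Among the Hox genes, which pattern the body axis, 14 of 27 were at least 2-fold lower and 3 higher, Hoxb13 among them. The median log2 fold change of the family was -1.01 against 0.02 for all genes. Hoxc8 and Hoxa3 fell from 11.2 ± 0.561 to 1.47 ± 0.572 and from 12.3 ± 1.31 to 1.68 ± 0.252 RPM (log2 fold changes -2.33 ± 0.13 and -2.31 ± 0.12). The other 2 higher members, named for that reason, were Hoxb6 and Hoxb7, neighbours in the same cluster as Hoxb13, which rose from 2.7 ± 0.455 to 7.01 ± 0.695 and from 2.48 ± 0.392 to 8.1 ± 0.583 (log2 fold changes 1.12 ± 0.12 and 1.39 ± 0.11). Of the 17 Hox genes at least 2-fold changed, 15 were so in the same direction at day 1. Of 15 TALE homeobox genes, partners of Hox proteins among them, 5 were higher and 1 lower, and Meis3 rose from 7.78 ± 0.403 to 24.4 ± 1.45.

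Gata4 and Gata6, factors of heart, gut and body-cavity lining, fell from 28.5 ± 1.3 to 2.05 ± 0.244 and from 283 ± 10.9 to 30.7 ± 1.32 RPM (log2 fold changes -3.27 ± 0.10 and -3.16 ± 0.05). Of 9 GATA and RUNX genes 2 were at least 2-fold lower and 0 higher, together 22.2% against 16.5% of all genes. The vitamin D receptor gene Vdr fell from 79.4 ± 2.68 to 12.5 ± 1.54 and the adipocyte regulator Pparg from 6.06 ± 0.55 to 0.722 ± 0.12 (log2 fold changes -2.58 ± 0.11 and -2.03 ± 0.11), and of 33 nuclear receptor genes 1 was higher and 4 were lower, together 15.2% against 16.5% of all genes. Stat5a and Stat5b, which carry the signals of prolactin and cytokine receptors, rose from 22.6 ± 1.84 to 109 ± 2.56 and from 16.3 ± 1.22 to 46.5 ± 1.3, and Irf5, an interferon regulatory factor, fell from 13.7 ± 0.326 to 0.29996 ± 0.0858. The ETS genes Etv1 and Fli1 rose from 1.66 ± 0.248 to 9.97 ± 0.787 and from 0.52 ± 0.0283 to 5.81 ± 0.154, and 5 of 16 ETS genes were higher and 1 lower. The bZIP gene Creb5 rose from 11.1 ± 1.06 to 45.6 ± 1.71. Sox11 rose from 15 ± 1.81 to 67.3 ± 4.28 and Sox8 fell from 16.8 ± 1.01 to 2.1 ± 0.241.

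Of 17 TEAD, SRF, MEF2 and SMAD genes 2 were at least 2-fold higher and 3 lower, and the 3 lower ones were all SMAD genes. The inhibitory SMADs are known to be switched on by BMP and TGF-β signals as feedback, and ID genes by BMP signals. The inhibitory SMAD gene Smad6 fell from 47.5 ± 3.17 to 9.07 ± 0.97 RPM, Smad7 fell from 50.6 ± 1.96 to 15.6 ± 2.21 and the receptor-regulated SMAD gene Smad9 fell from 12.4 ± 1.11 to 1.64 ± 0.289 (log2 fold changes -2.27 ± 0.08, -1.64 ± 0.07 and -2.35 ± 0.11). The 4 ID genes, inhibitors of bHLH factors that were chosen after their values were seen, all fell. Id1 had 47.5, 57.8 and 54.4 RPM in vector and 15.1, 14.3 and 13.7 in HOXB13. Id3 had 180.1, 188 and 209 and 21.1, 20.5 and 22.4, the widest gap of the 4 with a log2 fold change of -3.11 ± 0.04. Id2 fell from 14.7 ± 1.53 to 3.55 ± 0.796 and Id4 from 2.29 ± 0.941 to 0.469 ± 0.143. No library of either virus overlapped the other for these ID genes, as for 73.7% of all tested genes.

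Among genes in none of the 3 classes, predicted genes (Gm and Rik symbols), mitochondrial genes and pseudogenes were left out. The lowest and highest log2 fold changes of the rest, on the log2(RPM + 1) scale, were as follows. Smpd3 (ENSMUSG00000031906, chromosome 8, 106252548 to 106337988, minus strand), a sphingomyelinase gene, had 567, 564 and 577 RPM in vector and 2.43, 1.25 and 2.92 in HOXB13 (log2 fold change -7.52 ± 0.12), and Prmt7 overlaps it on the opposite strand. Pkhd1l1 had 396, 389 and 418 and 0.986, 1.01 and 2.16. Fmo2, a flavin monooxygenase gene, had 133, 130.1 and 138 and 0.379, 0.624 and 0.348. For these 3 genes every vector library was high and every HOXB13 library low. Frmd4b, of the FERM domain family, fell from 136 ± 6.26 to 0.966 ± 0.052, and Kcnab1, an accessory subunit of potassium channels, fell from 267 ± 4.34 to 3.14 ± 0.51. Insyn2a rose with 0.408, 0.15 and 0.234 RPM in vector and 102, 91 and 98.4 in HOXB13 (log2 fold change 6.28 ± 0.11). Hsd11b1, the enzyme that makes active glucocorticoid in cells, had 2.2, 2.32 and 1.56 and 85.3, 87.7 and 101 (log2 fold change 4.94 ± 0.12). Aim2, a sensor of cytosolic DNA, rose from 0.154 ± 0.15 to 40.2 ± 3.63. Dach1, a nuclear cofactor, rose from 0.127 ± 0.115 to 38.5 ± 1.59. Its log2 fold change of 5.14 was above that of Pknox2, but the symbol-based transcription factor class does not hold it. Erv3, an endogenous retroviral gene, rose from 0.104 ± 0.0906 to 44.4 ± 1.19.

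The day 1 libraries show which of these differences were there before the osteogenic medium. They come from separate wells of cells with the same viruses, so the comparison of days shares no library between its sides. At day 1, 1713 genes passed with at least 2-fold, 13.1% of those tested. Of the 2148 genes of day 21, 747 were at least 2-fold changed in the same direction at day 1, which is 34.8% of the day 21 genes and 43.6% of the day 1 genes, and 78 were so in the opposite direction. By class, the same direction held for 72 of 212 secreted genes, 130 of 330 surface genes and 55 of 134 transcription factor genes, and the opposite direction for 17, 9 and 2. The test of the difference between the effects passed with at least 4-fold on the log2(RPM + 1) scale for 646 genes, 4.95% of those tested, and for 467 of the 2148. Among the 2-fold changed genes of each class it did so for 74 of 212 secreted, 83 of 330 surface and 17 of 134 transcription factor genes.

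Some leading genes differed in the same direction on both days, with less than 4-fold between the effects. Plxnc1 had a log2 fold change of 4.57 ± 0.10 at day 1 and 5.34 ± 0.10 at day 21. Smoc2 had 3.04 ± 0.05 and 3.95 ± 0.05, and Igfbp5 had 3.15 ± 0.07 and 4.0 ± 0.07. Upk1b had -5.62 ± 0.07 and -7.11 ± 0.07. All 4 were further apart at day 21, by 0.77 ± 0.14, 0.91 ± 0.07, 0.85 ± 0.10 and -1.49 ± 0.09, and the highest of limma's adjusted p for these differences was 3.06e-05. Lif had -3.13 ± 0.10 and -3.25 ± 0.10, and Tgfb2 had -2.65 ± 0.05 and -2.64 ± 0.05. For these 2 genes the effects differed by -0.12 ± 0.14 and 0.01 ± 0.07, with adjusted p of 0.458 and 0.897, which did not pass. These genes were thus already apart in confluent cells in serum medium.

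For others most of the difference at day 21 was not there at day 1. At day 1 the mean level of Ccl8 was 0.0802 ± 0.0755 RPM in vector and 0.0593 ± 0.0582 in HOXB13, near the 0.0793 and 0.0614 RPM that 3 reads over the vector and HOXB13 groups would give. The difference between its effects was 5.53 ± 0.16 on the log2 scale (adjusted p = 7.49e-19). Cfb started, at day 1, from 0 ± 0 RPM in vector and 0.0637 ± 0.0649 in HOXB13, with a difference between effects of 4.06 ± 0.14. Thbs4 was apart at day 1 already, with 0.61 ± 0.023 RPM in vector and 4.5 ± 0.201 in HOXB13, and widened by 5.91 ± 0.14. Pcolce2 was even at day 1, with 35.1 ± 2.84 RPM in vector and 36 ± 1.12 in HOXB13, and its effects differed by 4.97 ± 0.16. At day 1 Igfbp3 had 137 ± 12.3 RPM in vector and 173 ± 6.26 in HOXB13, and its effects differed by 3.66 ± 0.07. Among genes that fell, Fmo2 had, at day 1, 0.246 ± 0.152 RPM in vector and 0.184 ± 0.010002 in HOXB13, and its effects differed by -6.48 ± 0.17, and those of Vnn1 by -5.46 ± 0.16. Spock2 was lower at day 1 already, at lower levels, with 1.84 ± 0.217 RPM in vector and 0.448 ± 0.069 in HOXB13, and its effects differed by -5.56 ± 0.16. Among Id genes only Id3 passed the 4-fold limit, with -2.49 ± 0.06, while Id1, at -1.92 ± 0.08, lay just inside it.

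Another set crossed over. Crispld2, a gene for a secreted cysteine-rich protein, had 258 ± 2.69 RPM in vector and 29.4 ± 1.23 in HOXB13 when the medium was changed. At day 21 it had 145 ± 5.12 RPM in vector and 1610.1 ± 26.7 in HOXB13. Its log2 fold changes were -3.09 ± 0.03 and 3.47 ± 0.03, which differed by 6.56 ± 0.04 (adjusted p = 1.59e-30). Postn, the matricellular protein periostin, went from 1286 ± 47.1 RPM in vector and 208 ± 13.1 in HOXB13 to 201 ± 30.6 RPM in vector and 1948 ± 89.8 in HOXB13 at the end, and its effects differed by 5.91 ± 0.09. Both were chosen after their values were seen. Tnfrsf21, Bmpr1b and Il4ra crossed in the same sense, with log2 fold changes of -1.18, -1.08 and -1.56 at day 1. Stc1, which encodes the hormone stanniocalcin 1, crossed the other way, from 3.06 ± 0.479 RPM in vector and 30.8 ± 2.46 in HOXB13 before the medium to 36.1 ± 2.49 RPM in vector and 13.6 ± 1.09 in HOXB13 after it, and its effects differed by -4.32 ± 0.13. Sema3d and Cxcl10 did so too, with log2 fold changes of 1.69 ± 0.05 and 1.58 ± 0.17 at day 1 and -2.61 ± 0.05 and -2.78 ± 0.17 at day 21.

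**Figure D4:**
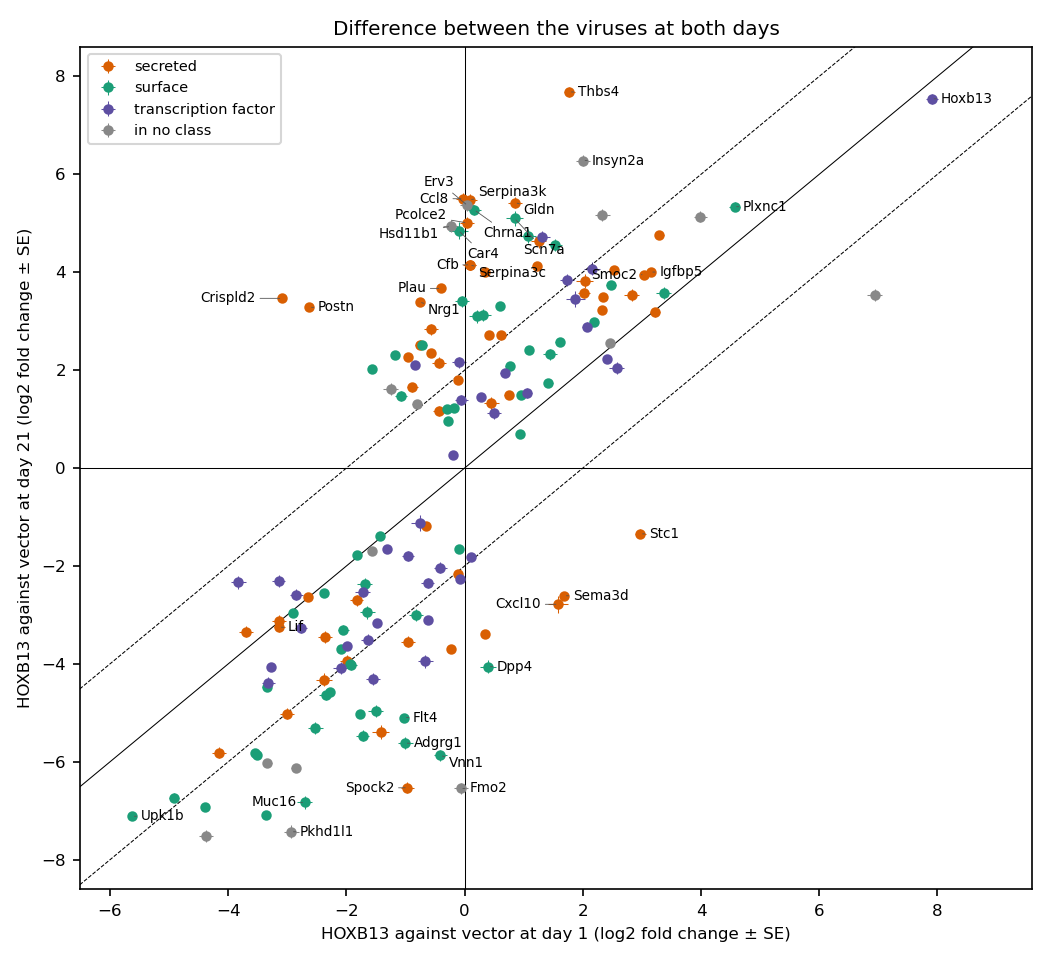
Log2 fold change of HOXB13 against vector at day 1 (x axis) and day 21 (y axis) with standard errors from limma, for the genes given with values in the text. The solid line marks equal effects and the dashed lines a 4-fold difference between them on the log2(RPM + 1) scale. Plxnc1, Igfbp5 and Smoc2 lie between the dashed lines, Ccl8 and Fmo2 near the vertical axis, and Crispld2 and Stc1 where the directions are opposite.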

How the data were processed

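RNA was sequenced with a strand-specific kit, per the labels' protocols. The authors deposited gene signal values, which are reads per 1000000 of the TMM-scaled library size. All non-zero values were whole multiples of the value of 1 read (100% within 0.01), so reads and depth were recovered from them. Per the submitters' processing notes, tools were STAR 2.7.2a, HTSeq 0.6.1, DESeq2 and edgeR and the build was GRCh38, a human one, although all 55573 identifiers are of mouse genes. No source used here gives the strand setting of the counting or a mouse build. Genes that overlap a tested gene on the opposite strand (Arnt2, Cxcl10, Eng, Fgf2, Gata6, Gpr39, Hoxa3, Il7, Irf5, Smpd3, Sox8 and Stat5a) are therefore uncertain.

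Tested genes, 13516 in all, reached 1 RPM in 3 or more of the 12 libraries, and 460 on X or Y were left out of the counts. The model, in R 4.3.3 with limma 3.58.1, took log2(RPM + 1), all 12 libraries, a mean for each group and eBayes variances with a trend, with two-sided tests and Benjamini-Hochberg adjustment over all tested genes at 0.05. The interaction was taken as day 21 effect minus day 1 effect. Scripts were tested on simulated data. Alternatives were pseudocounts of 0.25 and 4, no filter, 5 RPM or a filter within day 21, median of ratios, quantile normalization, no TMM factors, edgeR 4.0.16 and DESeq2 1.42.0 on the whole reads, the 6 libraries alone, a replicate block, X and Y genes left out of the fit, and each library left out in turn.

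Classes hold protein-coding genes of 68 families, chosen by symbol. Named were, among called genes that reached 5 RPM on average in a group and whose libraries did not overlap between viruses, the 6 highest and 6 lowest of each class, the 5 highest and 5 lowest in no class, and up to 3 of each family with at least 5 tested members, 206 genes in all, of which 136 have a RefSeq promoter. Predicted genes (Gm and Rik symbols), mitochondrial genes and pseudogenes were left out of those in no class. Not all of the named genes are reported here. The comparison, families, markers and rules were chosen with earlier results of these data known, and genes outside the rule are marked where they are named.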

Additional observations from a re-analysis of the deposited data

Results flagged for a closer look

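For 83 of the genes given with values in the report, the difference between HOXB13 and vector cells was not the same on both days. The test of this passed with limma's adjusted p below 0.05 and at least 4-fold between the day 21 and day 1 effects. The values below are the log2 fold change at day 21 minus that at day 1. This limit was passed by 4.95% of all tested genes, and most of these genes were picked for large day 21 changes, so their number is not read further.

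Secreted genes with a positive difference, higher in HOXB13 relative to vector at day 21 than at day 1, were led by Crispld2 (6.56), Thbs4 (5.91), Postn (5.91), Ccl8 (5.53) and Serpina3k (5.39). Pcolce2 (4.97), Gldn (4.57), Nrg1 (4.15), Plau (4.07), Cfb (4.06) and Serpina3c (4.06) also passed 4 on the log2 scale. Smaller differences were those of the growth factor and binding protein genes Igfbp3 (3.66), Bmp3 (3.38), Inhbb (3.27), Hgf (2.9) and Igf1 (2.54), the chemokine gene Ccl9 (2.58), and the matrix genes Col14a1 (3.4), Adamts12 (3.22), Mmp13 (2.92), Vcan (2.3) and Col12a1 (2.12). Secreted genes with a negative difference were Spock2 (-5.56), Cxcl10 (-4.36), Stc1 (-4.32), Sema3d (-4.3), Trf (-3.96), Fgf2 (-3.75), Igfbp6 (-3.47), Prss12 (-2.59), Sema3c (-2.05) and Tnfsf18 (-2.01).

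Surface genes with a positive difference were the channel and transporter genes Chrna1 (5.11), Scn7a (4.25), Slc6a2 (3.44), Kcnj15 (3.23) and Kcnh1 (2.81), the receptor genes Prlr (3.66), Il4ra (3.58), Tnfrsf21 (3.49), Cd40 (2.89) and Bmpr1b (2.56), and Car4 (4.95), Cntnap4 (3.02) and Gpc1 (2.71). Those with a negative difference included Vnn1 (-5.46), Adgrg1 (-4.62), Dpp4 (-4.46), Muc16 (-4.12), Flt4 (-4.08), Tspan8 (-3.75), Gpm6a (-3.74), Cdh1 (-3.45) and Plxna4 (-3.25). The others were Cldn15 (-2.78), Upk3b (-2.53), Lrrn4 (-2.33), Itga3 (-2.3), Mst1r (-2.28), Lrp2 (-2.27), Kcnh2 (-2.17) and Adgrb2 (-2.07). Gpm6a and Upk3b are on the mesothelial marker list, whose part in these differences was not tested.

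Among transcription factor genes the difference was positive for Pknox2 (3.4), Sox11 (2.93), Fli1 (2.26) and Bhlhe22 (2.11) and negative for Tcf23 (-3.28), Nfe2l3 (-2.75), Id3 (-2.49) and Smad6 (-2.2). Among genes in no class it was positive for Erv3 (5.32), Hsd11b1 (5.17), Insyn2a (4.28) and Aim2 (2.84) and negative for Fmo2 (-6.48), Pkhd1l1 (-4.5), Frmd4b (-3.26), Smpd3 (-3.14) and Kcnab1 (-2.69). Among markers of other cell types it was positive for Actg2 (2.87) and Des (2.11) and negative for Alpl (-2.11) and Stmn2 (-3.40).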

How the results depend on the processing

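The pseudocount decided how many genes reached 2-fold. With a pseudocount of 4 in place of 1, genes at least 2-fold lower came to 713 against 1079, surface genes at least 2-fold higher to 124 against 187, and transcription factor genes to 36 higher and 38 lower against 60 and 74. All genes at least 2-fold changed came to 2148 in the fit reported, 1442 with a pseudocount of 4, 2561 with 0.25, 2713 by edgeR and 2701 by DESeq2. Without the TMM factors 44.8% of called genes were higher in HOXB13, against 52.2%, and the median over all genes moved from 0.02 to -0.05 on the log2 scale. Leaving out each library in turn gave 2127 to 2168 genes at least 2-fold changed (9108 to 9159 called), with 1052 to 1091 higher and 1069 to 1084 lower. Equal replicate numbers did not go with correlated residuals (-0.0345, -0.033 and 0.00459 over 10682 genes), so no pairing was used, and a replicate block gave 2148 genes at least 2-fold changed and 9409 called. Each of the 165 genes given with values kept its direction and stayed past limma's, edgeR's or DESeq2's threshold of 0.05 in every alternative setting. That is 3135 results, each of 1 gene in 1 setting, with a highest adjusted p of 0.00442 (Runx2, without the TMM factors). Most of these genes were picked because they passed in the main fit, often with large changes, so this was likely beforehand. Depth limited levels below 0.078 RPM in vector and 0.0743 in HOXB13, the value of 3 reads over a group.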
